A study of Arabidopsis lyrata subsp. lyrata and Arabidopsis thaliana with 7 samples.

Results

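The version-2 annotation of *A. lyrata* attaches to many gene models the names of their *A. thaliana* orthologs, and most of these models carry a single name. Described here are the 92 gene models that list 2 or more *A. thaliana* genes, out of 32793 gene models in all and 22143 models with at least 1 listed gene. They were taken by the length of that list alone, without reference to any count of reads. Together they list 205 *A. thaliana* genes, and no gene was listed by more than 1 of them. A list of 2 genes was found in 81 models, of 3 genes in 7, of 4 genes in 1, of 5 genes in 2 and of 8 genes in 1.

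Poly-A RNA was sequenced from untreated plants grown in soil under long days. The *A. lyrata* libraries, all of accession MN47, came from complete inflorescences of flowering plants (2 libraries), from shoot apices freed of leaves, cotyledons, hypocotyl and roots (1 library) and from entire vegetative rosettes (2 libraries). Rosettes and apices were taken about 3 weeks after sowing, when plants had 5 leaves. The reference species was represented by 2 libraries of entire vegetative rosettes of *A. thaliana* accession Col-0 at the same stage, in a table of its own. The labels do not say whether replicates came from separate plants, so the spread between them may be technical, and the apex has no replicate. Inflorescence reads were shorter than those of the apex and of untreated rosettes in the study's list of libraries, so that tissue and read length cannot be told apart in comparisons with inflorescences.

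An ortholog is a gene in another species that descends from the same ancestral gene. The study paired proteins of both species that were each other's best match in a similarity search. After the split of the species a gene may be duplicated in one of them, and its copies then share 1 counterpart in the other. Plant histones, ribosomal proteins, tubulins, actins and translation elongation factors are encoded by families of genes whose proteins are alike or the same, and copies of such proteins score equally as matches. Neighbouring copies are called tandem duplicates, and copies of a whole stretch of genes are called segmental duplicates.

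Reads counted in *A. lyrata* gene models numbered 10556736 to 28347972 per library, and those counted in *A. thaliana* genes 15981384 and 12667832. Levels in *A. lyrata* are given as CPM, the reads of a model in every 1000000 counted reads, scaled with TMM factors of 0.722 to 1.32. The tissue labels were checked with marker genes. Models for all 5 floral, 4 of 5 leaf, 2 of 4 pollen and 3 of 3 root genes were at hand. The summed level of 5 floral organ identity genes was 1235 and 1132 CPM in inflorescences, 0.790 CPM in the apex and 6.14 and 0.727 CPM in rosettes. The 4 leaf genes summed to 1029.7 and 1282 CPM in inflorescences, 973 CPM in the apex and 23561 and 18434 CPM in rosettes. The 2 pollen genes reached 983 and 963 CPM in inflorescences and at most 0.502 CPM elsewhere, and 3 root genes at most 9.04 CPM in any library. Of the shoot meristem genes, those for STM, KNAT1 and CUC3 were detected in apex and inflorescences alike. The stem cell genes CLV3 and WUS were at 0.215 and 0.144 CPM in the apex, and WUS was at 6.11 and 8.72 CPM in inflorescences. These meristem genes thus do not tell the apex from inflorescences. In rosette replicate 1 KNAT1 was at 3.98 and SEP3, a floral gene, at 5.36 CPM, against 0 and 0.519 CPM in rosette replicate 2. In tissue samples, fewer cells of a type and less RNA per cell cannot be told apart.

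The longest list belonged to AL1G17720 on scaffold 1 (2816432 to 2817203), which names all 8 *A. thaliana* genes of histone H4, the core histone that pairs with histone H3 in the nucleosome. The 8 coding regions are each 312 bases long and encode 1 protein, yet no pair of them is the same. The first 90 bases are shown from the reference assembly TAIR10.1, with capitals at the 26 positions where the 8 genes are not all alike. They show how genes that differ in sequence are still the same at the level of the protein.
AT5G59970: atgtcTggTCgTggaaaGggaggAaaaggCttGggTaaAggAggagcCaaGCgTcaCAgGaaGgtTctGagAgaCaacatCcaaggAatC
AT5G59690: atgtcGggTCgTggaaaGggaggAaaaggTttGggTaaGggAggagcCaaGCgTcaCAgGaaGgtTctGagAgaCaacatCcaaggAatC
AT3G46320: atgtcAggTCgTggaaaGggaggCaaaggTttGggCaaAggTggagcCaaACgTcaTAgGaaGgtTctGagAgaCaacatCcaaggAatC
AT3G53730: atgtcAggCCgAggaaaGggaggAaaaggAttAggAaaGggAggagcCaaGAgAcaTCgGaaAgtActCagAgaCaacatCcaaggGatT
AT3G45930: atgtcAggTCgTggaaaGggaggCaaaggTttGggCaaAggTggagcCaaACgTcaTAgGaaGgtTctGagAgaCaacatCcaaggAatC
AT2G28740: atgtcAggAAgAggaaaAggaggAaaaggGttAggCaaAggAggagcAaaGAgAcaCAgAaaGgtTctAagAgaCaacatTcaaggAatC
AT1G07820: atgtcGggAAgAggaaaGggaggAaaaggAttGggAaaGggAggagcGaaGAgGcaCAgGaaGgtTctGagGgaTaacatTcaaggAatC
AT1G07660: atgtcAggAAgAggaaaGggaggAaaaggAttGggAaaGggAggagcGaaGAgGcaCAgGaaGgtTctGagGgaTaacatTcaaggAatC

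Over the whole coding region the 8 histone H4 genes differed at 103 positions, of which 85 were the third base of a codon. The stretches lie at chr5:24146574-24146663 on the minus strand, chr5:24051649-24051738 on the plus strand, chr3:17020265-17020354 on the minus strand, chr3:19912881-19912970 on the minus strand, chr3:16883390-16883479 on the plus strand, chr2:12329865-12329954 on the minus strand, chr1:2421657-2421746 on the minus strand and chr1:2369212-2369301 on the plus strand, each in the first coding exon. Models beside AL1G17720 on scaffold 1 list genes next to AT1G07660, so this is the listed gene that shares its position.

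A closer pair was listed by AL1G42720, the model with the highest level of all 92. It names the tandem genes CAB2 (AT1G29920) and CAB3 (AT1G29910), which encode LHCB1, the main chlorophyll a/b protein of the antenna of photosystem II. Over 804 coding bases these genes differed at 35 positions, 34 of them at the third base of a codon. The first 90 bases, at chr1:10475803-10475892 on the minus strand and chr1:10473157-10473246 on the minus strand, are shown with their 5 differences in capitals.
AT1G29920: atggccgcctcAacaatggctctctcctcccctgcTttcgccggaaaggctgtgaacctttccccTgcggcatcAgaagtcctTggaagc
AT1G29910: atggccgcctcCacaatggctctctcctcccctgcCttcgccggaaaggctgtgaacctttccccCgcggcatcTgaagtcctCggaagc

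The genes ACT3 (AT3G53750) and ACT1 (AT2G37620), listed by AL4G32880, encode 1 actin protein from different chromosomes. Over 1134 coding bases they differed at 108 positions, 105 of them at the third base of a codon. The 60 bases of the first coding exon, at chr3:19915924-19915983 on the plus strand and chr2:15779761-15779820 on the plus strand, held 4 differences, all at the third base of a codon and given in capitals.
AT3G53750: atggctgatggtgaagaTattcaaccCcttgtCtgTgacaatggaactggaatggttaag
AT2G37620: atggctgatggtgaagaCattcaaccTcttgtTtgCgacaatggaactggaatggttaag

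At the other end, the coding regions of AT5G50520 and AT5G50630, listed by AL8G24010, were the same in all 1623 bases. Their first 90 bases, at chr5:20571498-20571587 on the minus strand and chr5:20604839-20604928 on the minus strand, are shown as an example of a segmental duplicate and carry no capitals.
AT5G50520: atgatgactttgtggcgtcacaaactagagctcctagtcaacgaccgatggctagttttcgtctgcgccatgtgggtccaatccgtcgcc
AT5G50630: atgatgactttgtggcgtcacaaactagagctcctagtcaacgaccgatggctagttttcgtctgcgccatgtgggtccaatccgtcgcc

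The listed genes lay on different chromosomes in 34 of the 92 models and on 1 chromosome but apart in 32. Neighbours, here genes whose locus numbers differ by at most 10, were listed by 20 of 92 models (21.7%, 95% interval 13.8 to 31.6, exact binomial). Since locus numbers in *A. thaliana* mostly rise by 10 from gene to gene, this limit mainly takes adjoining loci. Allowing numbers up to 50 apart gave 31 models, and 19 of 86 models listed genes that adjoin in the order of protein coding genes of TAIR10.1. The 19 are not all among the 20. AL1G46290 and AL3G41820, with numbers 20 apart, list genes that adjoin in that order. Another 4 models paired a mitochondrial gene with a nuclear gene on chromosome 2. The last 2 listed the 2 copies of a chloroplast gene, *rpl2* for AL1G43960 and *ycf2* for AL2G20680.

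Whether a model shares its position with 1 or several of its listed genes was read from the nearest 5 single-gene models on each side. A listed gene was taken as matched when at least 2 of these 10 flanking models named genes within 100 locus numbers of it. Among the 34 models whose genes lie on different chromosomes, 30 were matched to exactly 1 listed gene. A flanking gene can lie near listed genes of 1 chromosome only, so for these lists the rule mainly tells a match from none. The exceptions were AL1G18060, matched to 3 elongation factor genes in a row, AL5G21390, matched to 2 ribosomal protein genes, and AL2G20860 and AL4G11310, matched to none. Histone H3 model AL1G19510 was matched to AT1G09200, actin model AL4G32880 to AT2G37620 (ACT1) and alpha tubulin model AL1G55920 to AT1G50010 (TUA2). Among the 20 models with neighbouring genes, 17 were matched to all of them, while AL4G34170, AL5G25080 and AL8G16760 were matched to none. Genes at most 10 numbers apart nearly always pass a limit of 100 together. For neighbours, and for other listed genes within that limit of each other, the rule therefore cannot tell 1 shared position from several. Among the 32 models with genes apart on 1 chromosome, 18 were matched to 2 or more of them, 10 to 1 and 4 to none. Of the models with organelle genes, only AL3G43200 was matched, to both of its genes.

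Several runs of models listed genes of stretches that *A. thaliana* holds as copies. On scaffold 8, between 14047829 and 14073513, the 7 models AL8G24010, AL8G24020, AL8G24040, AL8G24050, AL8G24060, AL8G24070 and AL8G24080 each named 1 gene of AT5G50520 to AT5G50600 and its copy in AT5G50630 to AT5G50700. The run was broken only by AL8G24030, a model marked as containing a transposable element that lists a gene of chromosome 1. Among the listed genes are SPL13A and SPL13B, SBP-box transcription factors, the SUMO-activating enzyme SAE1B, and the hydroxysteroid dehydrogenases HSD1, HSD4 and HSD7. A run of 3 models, AL1G60740, AL1G60750 and AL1G60760, named genes of AT1G53870 to AT1G53903. AL1G39310 and AL1G39330 named genes of AT1G24800 to AT1G25211, AL2G17260, AL2G17350 and AL2G17460 genes of AT1G58643 to AT1G59406, and AL7G44210 and AL7G44250 genes of AT5G36680 to AT5G36800.

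All listed genes shared an identical protein in 60 of 86 models with nuclear genes only, and the median identity of the least alike pair was 100%. By arrangement, these were 24 of 34 models with genes on different chromosomes, 26 of 32 with genes apart on 1 chromosome and 10 of 20 with neighbours. The coding region was the same for all listed genes in 15 of 32 models with genes apart on 1 chromosome and in 5 of 20 with neighbours, but in 0 of 34 with genes on different chromosomes, where the median identity was 89.9%. With 0 of 34, a share of up to 10.3% remains within the 95% interval.

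A model that joins 2 genes has about the length of their sum, and this was compared with the length of 1 gene. The coding length of the first transcript was nearer to that of the longest listed gene than to the sum of all listed genes, both taken as ratios, in 82 of 86 models (95.3%, 95% interval 88.5 to 98.7). It was within 5% of the longest gene in 64 of 86 models and the same to the base in 42 of 86. Other transcripts were not used here, so a model that also holds a transcript across its genes can count as near to 1 gene. Compared by gene span, or with the shortest listed gene, 74 and 81 of 86 models were nearer to 1 gene. The coding length of all 92 models had a median of 549 bp, against 1131 bp for the 22051 models that list 1 gene. Of the 92 models, 86 came from the gene predictor AUGUSTUS and 6 from the earlier JGI annotation, 10 are marked as containing a transposable element, and 18 (19.6%) have a single exon, against 16.3% of the models that list 1 gene.

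**Figure D1:**
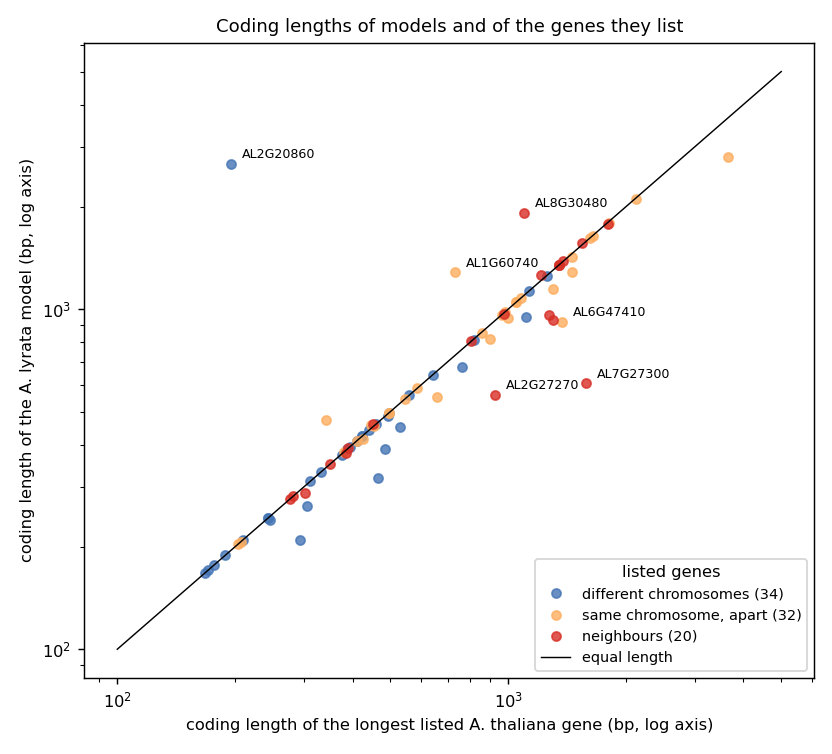
Coding length of the first transcript of each of 86 models (vertical axis, bp) against that of the longest *A. thaliana* gene it lists (horizontal axis, bp), both on log axes, coloured by the arrangement of the listed genes, with a line of equal length. Most points lie on the line, and AL2G20860, at 2676 bp against 195 bp, stands farthest above it.

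By this ratio the 4 models nearer to the sum were AL2G20860, AL1G60740, AL8G30480 and AL2G27530, of which AL2G27530 was nearer to its longest gene when counted in bases. AL2G20860 lists AT5G03850 and AT3G10090, genes of 195 coding bp, but its first transcript holds 2676 coding bp and its second 351, and the annotation marks it as containing a transposable element. It was hardly transcribed, with 7 and 10 reads in inflorescences, 3 in the shoot apex and 6 and 5 in rosettes. AL1G60740, with 1284 coding bp against 732 and 654 bp for its LURP-one-like genes, AL8G30480, with 1923 bp against 1101 bp for each of its DUF295 genes, and AL2G27530, with 471 bp against 342 and 297 bp for COX19-1 and COX19-2, were longer than any listed gene by less. COX19 proteins act as copper chaperones in the assembly of cytochrome c oxidase. On the short side stood AL7G27300 at 0.383 of its longest gene, AL2G27270 at 0.607, the polyubiquitin model AL6G47410 at 0.668 (918 bp against 1374 bp for UBQ10 and 918 bp for UBQ14), AL3G37310 at 0.684 and AL2G34740 at 0.710. These ratios use the first transcript. AL7G27300, AL2G27270 and AL2G34740 also hold a longer transcript across both genes, of 2076, 1707 and 1413 coding bp. AL4G34170, the fifth of the long models, was 1.04 times as long as its longest gene.

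In all, 3 models listed neighbouring genes whose proteins had nothing in common, and 1 more listed neighbours of 1 family that were 54.4% alike. All 4 carried separate transcripts for the 2 genes and a further transcript across both. In AL2G34740, transcripts of 927 and 1308 coding bp match the 927 bp of AT1G76240, a DUF241 gene, and the 1305 bp of AT1G76250, and the third, of 1413 bp, begins in one and ends in the other. In AL7G27300, transcripts of 606 and 1584 coding bp have the lengths of AT4G25260, a pectin methylesterase inhibitor, and of OTP70 (AT4G25270), a pentatricopeptide repeat protein, and the third, of 2076 bp, takes in parts of both. AL7G35430 names the transcription factor gene WRKY28 (AT4G18170, 957 bp) and the pectin lyase-like gene AT4G18180 (1269 bp), with transcripts of 960, 1362 and 1269 bp. AL2G27270 names the methyltransferase genes AT1G69526 (924 bp) and AT1G69523 (903 bp) and holds 5 transcripts, the longest of 1707 bp across both. The count of such a model may hold reads of both genes.

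**Figure D2:**
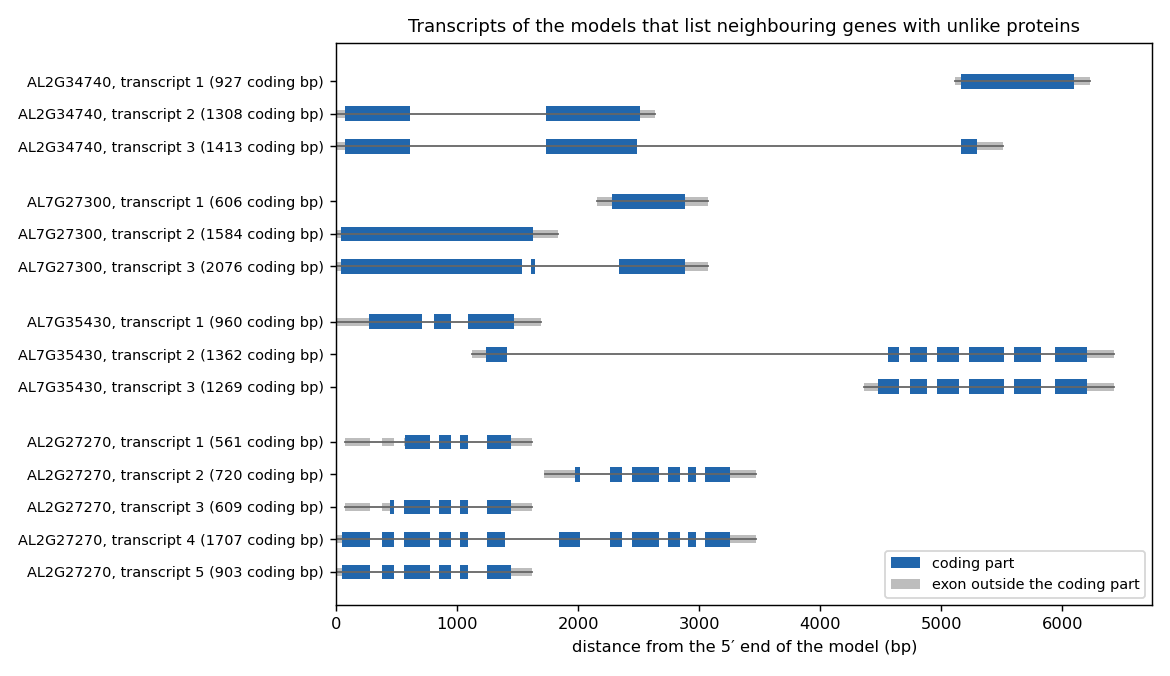
Annotated transcripts of the 4 models that list neighbouring genes with unlike proteins, drawn to scale from the 5′ end of each model (bp), with coding parts in blue and other exons in grey. In each model at least 1 transcript spans the regions that the shorter transcripts cover one by one.

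Identity of the proteins was also under 60% for AL8G17740, which lists the cysteine-rich peptide genes LCR13 and LCR28 (56.8%), and for AL1G39330. That model lists LpxC2 (AT1G24880) and LpxC3 (AT1G25054), deacetylase genes of a lipid A-like pathway, which TAIR10.1 annotates with 378 and 981 coding bp in stretches of the genome that are copies of each other. The value of 13.5% for this pair compares proteins from annotations of unequal length.

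At least 5 reads in every *A. lyrata* library were found for 67 of 92 models (72.8%, 95% interval 62.6 to 81.6), and for 74.8% of the models that list 1 gene. With a minimum of 10 reads the number was 62. Of the 92 models, 76 (82.6%) passed the filter on low counts and could be tested, against 89.7% of the models that list 1 gene. No read at all was counted for AL1G14920, which lists 2 tandem peroxidase genes, and AL7G44210. The median over the 92 models of the mean level was 19.1 CPM, against 15.2 CPM for models that list 1 gene. Neither read counts nor CPM are scaled by length, and the median coding length differed (549 bp against 1131 bp). These comparisons are thus not of levels per base.

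Genes for small secreted and cell wall proteins made up the largest group among the 16 models that did not pass the filter. Of the 10 models of that kind, 8 were among them. AL8G16760 lists LURE1.3 and LURE1.4, which in *A. thaliana* encode peptides that the egg apparatus secretes to attract pollen tubes, and had 2 and 2 reads in inflorescences, 0 in the shoot apex and 0 and 0 in rosettes. AL9U10520, on an unanchored scaffold, lists 2 genes of the ECA1 gametogenesis family and had 1 and 5 reads in inflorescences, 0 in the shoot apex and 0 and 0 in rosettes. AL8G17740 (LCR13 and LCR28) had 2 reads and AL1G34610 (thionin genes) 1 read, all in inflorescences. AL6G42080 (X8 domain genes) had 6 and 15 reads in inflorescences, 0 in the shoot apex and 0 and 0 in rosettes, AL6G46280 (lipid transfer protein genes) 5 and 1 reads in inflorescences, 0 in the shoot apex and 0 and 0 in rosettes, AL6G40830 2 reads in 1 inflorescence and AL8G11290, also with lipid transfer protein genes, 4 reads, none of them in inflorescences. Reads of 7 of these 8 models came from inflorescences alone. The inflorescence libraries held 28347972 and 26047279 counted reads, against 10556736 in the apex and 14440792 and 13340336 in rosettes. At counts this low, depth and tissue cannot be told apart. The other untested models were AL1G39310 with 5 F-box genes (7 and 8 reads in inflorescences, 1 in the shoot apex and 1 and 0 in rosettes), AL2G17350 with GDSL lipase genes, AL4G21710 with genes of the TFIIS family, AL8G24040, AL8G24080 with the HSD1 copies, AL2G20860, AL1G14920 and AL7G44210, each with at most 14 reads in any library.

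By mean CPM, which is not scaled by length, the 10 highest levels belonged to genes that every cell uses and to photosynthesis. Scaling by coding length would change the order. After AL1G42720 came AL1G55920, which lists the alpha tubulin genes TUA2 and TUA4 and had 2341 and 2242 CPM in inflorescences, 3881 CPM in the shoot apex and 3364 and 3944 CPM in rosettes. By mean level these ranked 3rd and 13th among all gene models. The polyubiquitin model AL6G47410 (UBQ14 and UBQ10) followed with 555 and 516 CPM in inflorescences, 323 CPM in the shoot apex and 346 and 354 CPM in rosettes, above rosettes in both inflorescences by less than the test required (adjusted p = 0.0618). The beta tubulin model AL5G25080 (TUB2 and TUB3) had 402 and 376 CPM in inflorescences, 441 CPM in the shoot apex and 319 and 256 CPM in rosettes. Elongation factor 1-alpha, which brings aminoacyl-tRNA to the ribosome, was represented by AL1G18060 with 311 and 307 CPM in inflorescences, 448 CPM in the shoot apex and 330.3 and 367 CPM in rosettes. Next came ribosomal proteins, namely AL1G20050, AL5G32300, AL6G29100 and AL1G46290, and AL1G36490, which lists the ADP-ribosylation factors ARF1 and ARFA1D and had 187 and 179.8 CPM in inflorescences, 171 CPM in the shoot apex and 242 and 329 CPM in rosettes.

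Inflorescences were compared with rosettes by edgeR's quasi-likelihood test over all 25465 gene models that passed the filter. Of the 76 models tested here, 7 were higher and 9 lower in inflorescences (adjusted p under 0.05), which is 9.21% and 11.8%, beside 17.6% and 16.7% of all models tested. The median log2 fold change was 0.06 over the 76 models and 0.09 over all models. Of the 16 models called, no inflorescence library overlapped with a rosette library. They were picked by a test on these same libraries, so this is no further evidence. The libraries of some models that were not called, such as AL1G18060 and AL2G17460, did not overlap either. With library totals in place of TMM factors the median of all models was 0.68 and the split became 29 higher and 3 lower. Of all 25465 models, 9824 were then higher and 2852 lower. No call of the 16 turned round in that setting, though 6 of the 9 models called lower lost their call. Leaving out inflorescence replicate 1 or 2 leaves 1 inflorescence library. The calls made here were then all lost, while over all models the calls fell but did not vanish. The median log2 fold change was 0.08 without replicate 1 and 0.003 without replicate 2 here, beside 0.09 and 0.07 over all models. Without rosette replicate 1 or 2 edgeR called more models than in the main fit, both here and over all models. The median log2 fold change was then -0.01 and 0.22 here, beside 0.18 and 0.12 over all models.

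**Figure D3:**
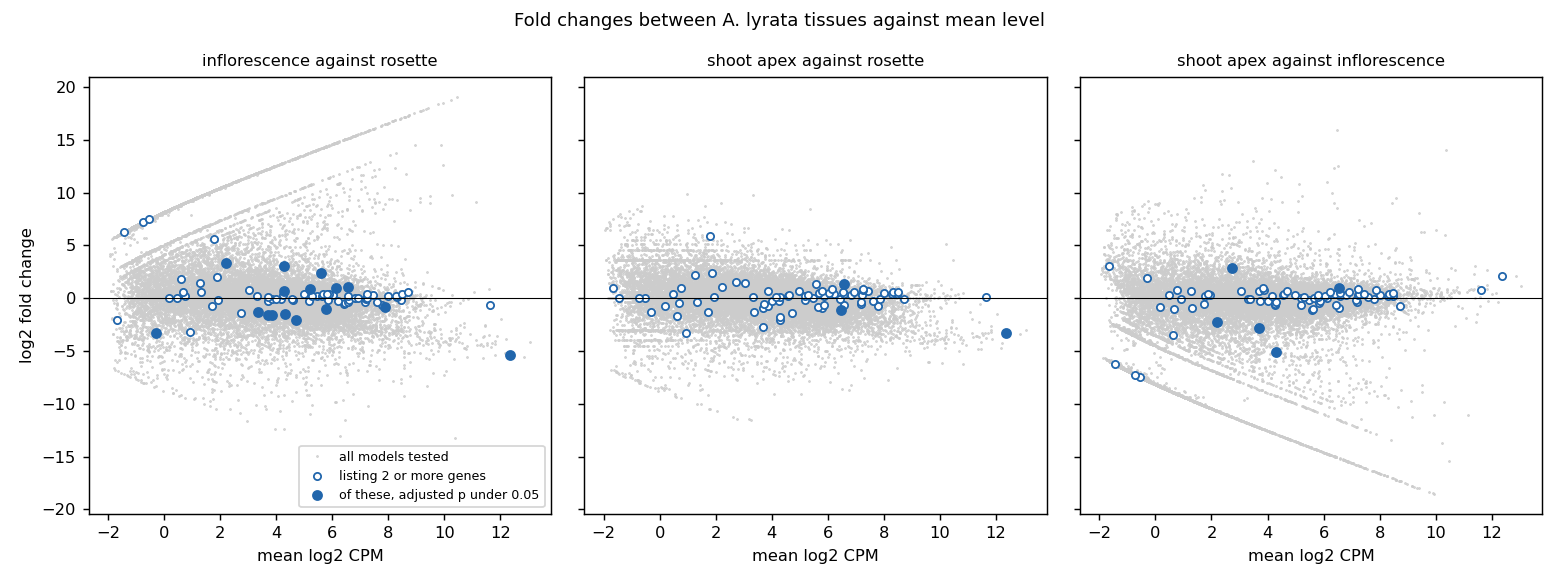
Log2 fold change (vertical axis) against mean log2 CPM (horizontal axis) for all models tested (grey), the 76 tested models that list 2 or more genes (open blue) and those of them with adjusted p under 0.05 (filled blue), in the 3 comparisons of *A. lyrata* tissues. Most blue points lie near 0, and the filled ones number 16, 3 and 5. Points on the outer curved lines have no read in one of the tissues, and their fitted values depend on the prior count.

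Among the models called, the largest rise was that of AL4G11310, which lists SK3 and SK4, subunits of SCF ubiquitin ligases of the SKP1 family. It had 7.15 and 10.8 CPM in inflorescences, 1.87 CPM in the shoot apex and 0.951 and 0.831 CPM in rosettes, and no rosette library reached the inflorescences (log2 fold change 3.32 ± 0.38 (SE), adjusted p = 0.00649). AL2G34740, the model across AT1G76240 and AT1G76250, had 51.1 and 33.7 CPM in inflorescences, 1.22 CPM in the shoot apex and 7.18 and 3.22 CPM in rosettes (log2 fold change 3.02 ± 0.48 (SE), adjusted p = 0.0141). For the actin model AL4G32880, which lists ACT1 and ACT3, levels were 85.9 and 82.3 CPM in inflorescences, 39.3 CPM in the shoot apex and 20.8 and 11.0 CPM in rosettes (log2 fold change 2.40 ± 0.35 (SE), adjusted p = 0.0113). Both of these *A. thaliana* actins are known as reproductive actins of pollen and ovules. In the same libraries the actin models AL3G23360 (ACT11) and AL5G24540 (ACT12), which list 1 gene each, rose as well, while AL1G54610 (ACT2) fell and AL6G19910 (ACT7) did not pass the test. The pollen genes given above moved the same way as these actin models, and their part in the change was not tested.

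Of 3 histone models, 2 rose in inflorescences, beside the 17.6% of all models tested. AL1G19510, which names 5 genes of histone H3, had 127 and 106 CPM in inflorescences, 137 CPM in the shoot apex and 55.8 and 52.3 CPM in rosettes (log2 fold change 1.10 ± 0.17 (SE), adjusted p = 0.0135). AL1G17720 with its 8 histone H4 genes had 91.7 and 82.1 CPM in inflorescences, 85.6 CPM in the shoot apex and 44.3 and 47.0 CPM in rosettes (log2 fold change 0.93 ± 0.15 (SE), adjusted p = 0.0148). In both, the apex library lay with the inflorescences and above the rosettes. The third histone model, AL5G23900 (HTB9 and HTB11, histone H2B), had 187 and 162 CPM in inflorescences, 232 CPM in the shoot apex and 126 and 165 CPM in rosettes and did not pass (log2 fold change 0.26 ± 0.21 (SE), adjusted p = 0.384). A pair of membrane proteins of the secretory pathway were also higher. AL1G39840, which lists genes of RAMP4, a small protein at the translocon of the endoplasmic reticulum, had 50.8 and 47.3 CPM in inflorescences, 31.3 CPM in the shoot apex and 30.5 and 22.7 CPM in rosettes (log2 fold change 0.88 ± 0.20 (SE), adjusted p = 0.0352), and AL6G10640, of the Got1/Sft2 family of Golgi transport, had 23.5 and 25.9 CPM in inflorescences, 16.4 CPM in the shoot apex and 15.8 and 14.4 CPM in rosettes (log2 fold change 0.71 ± 0.16 (SE), adjusted p = 0.0371).

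By far the largest fall was that of the antenna model AL1G42720. It had 234 and 365 CPM in inflorescences, 1276 CPM in the shoot apex and 10081 and 14222 CPM in rosettes (log2 fold change -5.34 ± 0.46 (SE), adjusted p = 0.00371), a 40.6-fold lower level. The leaf markers given above moved the same way, and their share in this change was not tested. The 3 other LHCB1 models, AL1G42730, AL4G29210 and AL4G29220, fell too. AL1G43960, with the chloroplast *rpl2* genes, was at 4 and 6 reads in inflorescences, 9 in the shoot apex and 15 and 19 in rosettes (log2 fold change -3.29 ± 0.65 (SE), adjusted p = 0.025), counts that leave its size uncertain.

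The other 7 models that were lower in inflorescences were of several kinds. AL8G24020 (CBS and PB1 domain proteins) had 13.2 and 10.4 CPM in inflorescences, 9.47 CPM in the shoot apex and 24.8 and 40.9 CPM in rosettes (log2 fold change -1.48 ± 0.31 (SE), adjusted p = 0.0296), and its neighbour AL8G24010, a transporter of the major facilitator superfamily, had 6.96 and 7.37 CPM in inflorescences, 13.7 CPM in the shoot apex and 14.3 and 30.2 CPM in rosettes (log2 fold change -1.63 ± 0.41 (SE), adjusted p = 0.0436). Another major facilitator model, AL1G29950, which lists tandem genes, had 6.05 and 7.01 CPM in inflorescences, 6.39 CPM in the shoot apex and 19.0 and 13.2 CPM in rosettes (log2 fold change -1.30 ± 0.27 (SE), adjusted p = 0.0273). The methyltransferase model AL2G27270 had 8.69 and 12.9 CPM in inflorescences, 17.7 CPM in the shoot apex and 36.2 and 55.5 CPM in rosettes (log2 fold change -2.08 ± 0.33 (SE), adjusted p = 0.0141), and AL7G27300, across OTP70 and its neighbour, 6.96 and 6.48 CPM in inflorescences, 11.1 CPM in the shoot apex and 24.7 and 15.9 CPM in rosettes (log2 fold change -1.60 ± 0.28 (SE), adjusted p = 0.0188). AL2G29960 (HPA1 and HISN6B), the histidinol-phosphate aminotransferase of histidine synthesis, had 38.0 and 40.8 CPM in inflorescences, 41.6 CPM in the shoot apex and 64.5 and 91.6 CPM in rosettes (log2 fold change -0.99 ± 0.22 (SE), adjusted p = 0.034). Lastly, AL1G46290 (PGY2 and AT1G33120), of the ribosomal L6 family, had 153 and 163 CPM in inflorescences, 272 CPM in the shoot apex and 259 and 320.1 CPM in rosettes (log2 fold change -0.87 ± 0.19 (SE), adjusted p = 0.0335). In none of these 7 models did a rosette library fall to the level of an inflorescence library, which picking them by the test on these libraries made likely.

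**Figure D4:**
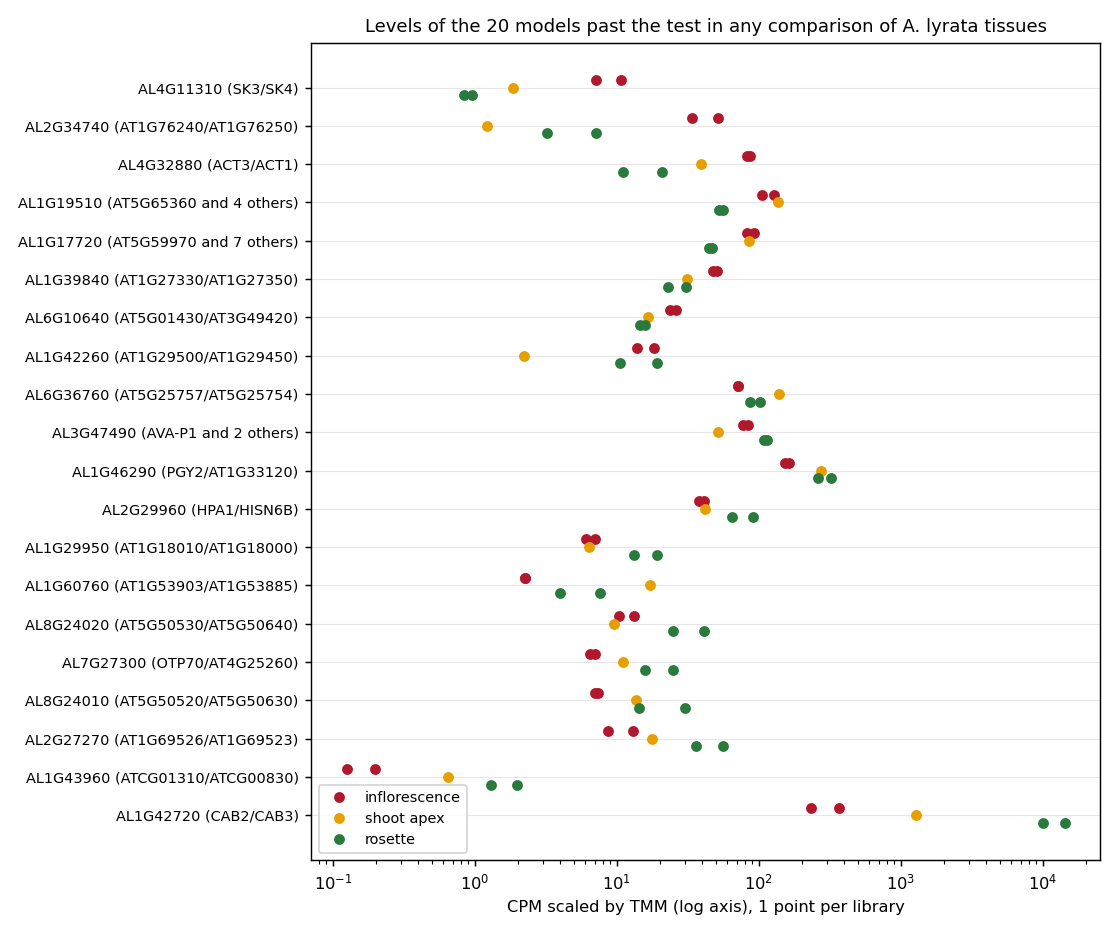
Levels in CPM scaled by TMM (horizontal axis, log) of the 20 models with adjusted p under 0.05 in at least 1 comparison, 1 point per library, for inflorescences (red), shoot apex (orange) and rosettes (green), ordered by log2 fold change of inflorescence against rosette. AL1G42720 spans the widest range, with 234 CPM in 1 inflorescence and 14222 CPM in 1 rosette library.

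In the shoot apex against rosettes, with 1 apex library, 1 of the 76 models was higher and 2 were lower (1.32% and 2.63%, beside 2.11% and 6.03% of all models tested). These standard errors and p-values rest on the spread between replicates of the other tissues and take the apex to vary as they do. Histone H3 model AL1G19510 was the one that rose (log2 fold change 1.34 ± 0.20 (SE), adjusted p = 0.0389). The antenna model AL1G42720 fell (log2 fold change -3.25 ± 0.56 (SE), adjusted p = 0.0467), and so did AL3G47490, which lists 3 genes for the proteolipid ring of the vacuolar proton pump and had 84.2 and 77.1 CPM in inflorescences, 51.9 CPM in the shoot apex and 115 and 109 CPM in rosettes (log2 fold change -1.11 ± 0.19 (SE), adjusted p = 0.0463). Without the filter on low counts AL1G19510 alone kept its call, and with the replicate number as a block edgeR called 0 of the 3, with 11 models higher and 8 lower at an unadjusted p under 0.05. With the block, and in the fits below where 0 models were called here, edgeR called 0 of all models tested as well. In the main fit the median was 0.14 over the 76 models and 0 over all. DESeq2 called 10 higher and 5 lower, beside 1585 higher and 3058 lower of all 25465 models. Library totals gave 27 higher and 1 lower, beside 5473 and 1122 of all models, with a median of 0.67 over all models. In a fit of rosettes and apex alone, and without either inflorescence library, edgeR called 0, with 4 models higher and 5 to 6 lower at an unadjusted p under 0.05. Without rosette replicate 1 or 2 edgeR called more models than in the main fit, both here and over all models. The median log2 fold change was then 0 and 0.26 here, beside 0 and 0 over all models. With DESeq2 the calls over all models rose too.

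Against inflorescences, 2 of the 76 models were higher in the shoot apex and 3 lower (2.63% and 3.95%, beside 3.99% and 8.74% of all models tested), again with the spread taken from the replicated tissues. AL1G60760, which lists DUF581 genes of a duplicated stretch, had 2.27 and 2.27 CPM in inflorescences, 17.1 CPM in the shoot apex and 7.61 and 3.94 CPM in rosettes (log2 fold change 2.91 ± 0.44 (SE), adjusted p = 0.0295). AL6G36760, which lists 2 PAF67 genes, had 71.2 and 71.5 CPM in inflorescences, 139.6 CPM in the shoot apex and 101 and 86.5 CPM in rosettes (log2 fold change 0.97 ± 0.19 (SE), adjusted p = 0.047). Lower in the apex were AL2G34740 (log2 fold change -5.11 ± 0.74 (SE), adjusted p = 0.027), the SKP1-like model AL4G11310 (log2 fold change -2.26 ± 0.45 (SE), adjusted p = 0.0491) and AL1G42260, which lists auxin-responsive SAUR genes and had 18.3 and 13.9 CPM in inflorescences, 2.23 CPM in the shoot apex and 19.2 and 10.6 CPM in rosettes (log2 fold change -2.85 ± 0.53 (SE), adjusted p = 0.0433). Without the filter 3 of the 5 calls were made again, and 2 of the 5, AL2G34740 and AL1G42260, with the replicate block. The median was 0.19 over the 76 models and -0.08 over all. DESeq2 called 7 higher and 5 lower, beside 1797 higher and 3270 lower of all 25465 models. A fit of these tissues alone called 16 higher and 14 lower of 78 models tested here, beside 5259 and 7130 of all 26057. Library totals gave 3 higher and 1 lower with a median of 0.13 over all models, while edgeR without inflorescence replicate 1 or 2 called 0, with 1 higher and 3 lower, and 2 higher and 2 lower, at an unadjusted p under 0.05. Without rosette replicate 1 or 2 edgeR called more models than in the main fit, with medians of 0.18 and 0.16 here, beside -0.09 and -0.09 over all models. Over all models the calls likewise rose without a rosette library, with DESeq2 and in the fit of these tissues alone. They fell to 0 over all models without inflorescence replicate 1 or 2.

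For a view by role, the models were sorted into groups from the annotation of their listed genes, after their values had been seen. Ribosomal proteins of the cytosol formed the largest group with 15 models, of which 14 were tested. In inflorescences against rosettes AL1G46290 was the only one to pass the test, with a median log2 fold change of 0.09 and 9 of 14 above 0. In the apex against rosettes the lowest adjusted p was 0.0837, the median was 0.44 and 12 of 14 were above 0. As examples from the small subunit, AL1G17910 (RPS15A and AT5G59850) had 118 and 142 CPM in inflorescences, 234 CPM in the shoot apex and 123 and 139 CPM in rosettes, and AL8G37830 (ribosomal S10p/S20e family) 107 and 118 CPM in inflorescences, 165 CPM in the shoot apex and 103 and 113 CPM in rosettes. In both the apex library was the highest of the 5. The apex is 1 library, and over all models tested the median log2 fold change in the apex against rosettes was 0. Of the models that list a pair of SH3-like translation protein genes, AL1G20050 had 306 and 309 CPM in inflorescences, 414 CPM in the shoot apex and 281 and 282 CPM in rosettes, and AL1G65330 had 83.0 and 88.9 CPM in inflorescences, 123 CPM in the shoot apex and 90.5 and 96.5 CPM in rosettes. Here too the apex was the highest library. AL6G29100, of the ribosomal S5 domain 2-like family, had 251 and 264 CPM in inflorescences, 319 CPM in the shoot apex and 209 and 234 CPM in rosettes, and the ubiquitin and ribosomal L40 fusion model AL5G32300 (UBQ1) 322 and 312 CPM in inflorescences, 363 CPM in the shoot apex and 274 and 289 CPM in rosettes.

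Several ribosomal models listed 3 genes. AL1G14040 (emb2171, AT2G33370 and AT1G04480) had 108 and 107 CPM in inflorescences, 133 CPM in the shoot apex and 94.8 and 119 CPM in rosettes. AL1G35610, with PFL, RPS18C and AT1G34030 for the S18 protein, had 141 and 141 CPM in inflorescences, 177 CPM in the shoot apex and 130.4 and 157 CPM in rosettes. PFL is known for the pointed first leaves of its mutant. AL3G46900, with 3 genes of the S30 family, had 56.7 and 61.3 CPM in inflorescences, 72.3 CPM in the shoot apex and 41.8 and 46.5 CPM in rosettes, and AL5G21390, with 3 of the S14p/S29e family, 50.8 and 61.1 CPM in inflorescences, 58.5 CPM in the shoot apex and 40.7 and 43.1 CPM in rosettes. AL2G17460, whose 3 genes have 1 and the same coding region, had 62.2 and 63.7 CPM in inflorescences, 97.5 CPM in the shoot apex and 68.7 and 79.1 CPM in rosettes. The apex lay above both rosettes in these 5 models, but below both in AL3G37310, whose levels follow. This rests on 1 apex library, and the share of all models with the same order was not determined. Nothing about these models is therefore read from the order. Over all libraries, AL5G40260 (L38e) ranged over 55.0 to 80.3 CPM. AL3G37310 (zinc-binding ribosomal proteins) had 112 and 111 CPM in inflorescences, 60.4 CPM in the shoot apex and 86.7 and 103 CPM in rosettes.

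Ribosomal proteins of the organelles gave 6 models. AL1G58870 (L22p/L17e family) ranged over 37.7 to 48.5 CPM, AL6G22130 (L19) over 32.1 to 43.3 CPM, AL8G34200 (annotated as mitochondrial S34) over 21.4 to 29.3 CPM and AL3G17010 (L33) over 14.6 to 22.8 CPM. AL6G40530, which pairs ATMG01270 with the chromosome 2 gene AT2G07696 of the S7p/S5e family, had 51 and 67 reads in inflorescences, 13 in the shoot apex and 9 and 17 in rosettes. Of the 6, the chloroplast *rpl2* model AL1G43960 passed the test, in inflorescences against rosettes, and for the other 5 the lowest adjusted p was 0.115 over the 3 comparisons. Among the translation factors, AL1G60750 (eIF-2B family) ranged over 10.3 to 18.0 CPM, and AL6G36760 was described above.

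Outside the 20 models with a call, the tubulin model AL6G30770 (TUA3 and TUA5) had 181 and 158 CPM in inflorescences, 186 CPM in the shoot apex and 149 and 292 CPM in rosettes, with rosette replicate 2 above all other libraries and rosette replicate 1 below them. Components of RNA processing had moderate levels. AL5G35200, with SAP130a and SAP130b of the spliceosome, ranged over 23.9 to 40.8 CPM, AL1G17150 (PHF5-like) over 13.6 to 22.0 CPM, AL7G40900 (splicing factor 3B subunit 5) over 21.3 to 26.8 CPM and AL6G31170 (L7Ae family) over 47.4 to 69.9 CPM. AL6G21460, with the mRNA export helicases UAP56a and UAP56b, had 162 and 158 CPM in inflorescences, 207 CPM in the shoot apex and 125 and 111 CPM in rosettes. The lowest adjusted p of these 5 models was 0.0767 over the 3 comparisons.

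In secretion and respiration the levels were moderate. AL7G27680, for the gamma subunit of the SEC61 translocon, had 58.8 and 57.1 CPM in inflorescences, 29.5 CPM in the shoot apex and 41.7 and 61.1 CPM in rosettes. Succinate dehydrogenase model AL6G19710 (SDH3-1 and SDH3-2) ranged over 67.3 to 99.1 CPM, and the ATP synthase model AL5G24420 over 42.6 to 69.8 CPM. AL2G27530 (COX19) had 2.87 and 2.50 CPM in inflorescences, 1.87 CPM in the shoot apex and 2.33 and 6.85 CPM in rosettes. The models that pair a mitochondrial and a nuclear gene were low: AL5G19720 (cytochrome c oxidase subunit III) reached 2.44 CPM, AL5G19820 (ATP synthase subunit C) 3.09 CPM and AL3G43200 1.45 CPM at most. The chloroplast *ycf2* model AL2G20680 had 0 and 4 reads in inflorescences, 8 in the shoot apex and 2 and 4 in rosettes.

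Regulators and enzymes completed the list. Calmodulin model AL2G22920 (CAM1 and CAM4), the calcium sensor, had 152 and 151 CPM in inflorescences, 121 CPM in the shoot apex and 111 and 195 CPM in rosettes. AL8G24050, for the SPL13 copies, ranged over 11.4 to 21.5 CPM with its highest value in the apex, and AL5G35510 (TTN10, a GINS replication protein) over 13.7 to 19.8 CPM. AL1G60740 had 0.252 and 0.658 CPM in inflorescences, 0.431 CPM in the shoot apex and 1.38 and 7.37 CPM in rosettes. Acyl carrier protein model AL1G63170 (ACP2 and ACP3), of fatty acid synthesis, had 136 and 131 CPM in inflorescences, 115 CPM in the shoot apex and 134 and 202 CPM in rosettes. AL1G39330 (LpxC) ranged over 2.77 to 4.88 CPM, AL8G24070 (HSD4 and HSD7) over 1.09 to 1.58 CPM, AL8G24060 (SAE1B) over 8.22 to 11.3 CPM, AL3G41820 (DNAJ heat shock proteins) over 29.5 to 44.0 CPM and AL7G44250 over 1.45 to 13.6 CPM. AL2G17260 (inositol-pentakisphosphate 2-kinase genes) had 66 and 87 reads in inflorescences, 3 in the shoot apex and 2 and 12 in rosettes. AL5G14260, with the 1,8-cineole synthase genes TPS-CIN, had 81 and 80 reads in inflorescences, 59 in the shoot apex and 21 and 0 in rosettes.

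Among the small secreted proteins, only 2 of 10 models could be tested. AL2G34260, which lists the defensin genes LCR67 and PDF1.2c, had 24 and 278 reads in inflorescences, 82 in the shoot apex and 2 and 0 in rosettes, so that its inflorescence libraries were far apart. AL5G40790, with defensin-like genes, had 0 and 59 reads in inflorescences, 0 in the shoot apex and 0 and 0 in rosettes. The F-box model AL4G34170 had 19 and 52 reads in inflorescences, 0 in the shoot apex and 0 and 0 in rosettes, AL8G30480 (DUF295) 4 and 26 reads in inflorescences, 0 in the shoot apex and 0 and 0 in rosettes, and AL7G35430, across WRKY28 and the pectin lyase-like gene, 95 and 186 reads in inflorescences, 85 in the shoot apex and 21 and 4 in rosettes. The lowest adjusted p of these 5 models in inflorescences against rosettes was 0.0636.

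In the *A. thaliana* rosettes each listed gene has a count of its own, given here as CPM per kb of its longest transcript, as the mean of 2 libraries. The highest and the lowest gene of a list differed by over 4 times in 12 of 92 models, and by over 2 times in 26. In 19 models every listed gene had under 3 reads in both libraries. How far counts of alike genes can be told apart depends on their sequence. A window of 100 bases was called unique when it occurs once in TAIR10.1. In 58 models more than 50% of the windows of every listed gene were unique, and all 12 models with a difference over 4 times were among them. In 21 models no listed gene with a reference sequence had any unique window.

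Among the 21 models without unique windows, all listed genes had the same count, above 0, in 8. AT1G58684, AT1G58983 and AT1G59359, listed by AL2G17460, were each at 1289 and 910 reads, AT1G53870 and AT1G53890 (AL1G60740) each at 45 and 193, and AT5G50520 and AT5G50630 (AL8G24010) each at 130 and 144. Both copies of the chloroplast *rpl2* gene stood at 168 and 122 and both of *ycf2* at 19 and 33. In all, the counts of the listed genes were the same in both libraries, and not all 0, for 11 models, of which 0 had over 50% unique windows in every gene. The study's methods speak of uniquely aligned reads, and the rule by which reads were counted in genes is not given in the sources used here. How these counts arose was not tested, and levels of single copies in such stretches are uncertain.

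**Figure D5:**
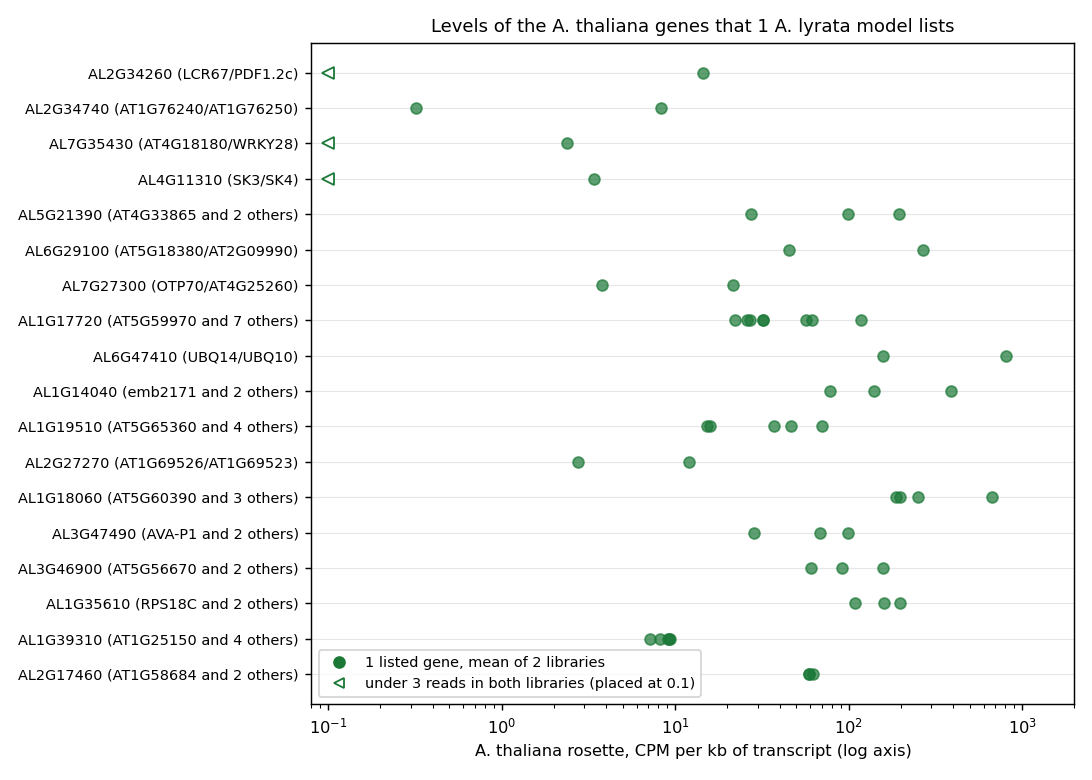
Level in *A. thaliana* rosettes (CPM per kb of transcript, log axis, mean of 2 libraries) of each gene listed by the models that name 3 or more genes or whose genes differ by over 4 times, 1 point per gene, from the smallest difference at the bottom to the largest at the top. Open triangles mark genes under 3 reads in both libraries. The 8 histone H4 genes lie between 22.1 and 118 CPM per kb, and UBQ10 at 803 CPM per kb is the highest.

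In the 58 models with mostly unique sequence, the highest and the lowest gene differed by a median of 1.71-fold, and by over 4 times in 12. The 8 histone H4 genes ranged from 27.1 and 17.1 CPM per kb for AT3G45930 up to 149.8 and 86.7 CPM per kb for AT5G59690. Their lowest and highest genes differed 5.35-fold. AT1G07660, which shares the position of AL1G17720, was at 29.0 and 24.9 CPM per kb. The 5 histone H3 genes ranged from 18.8 and 11.7 for AT3G27360 to 92.8 and 47.1 for AT5G65360, and AT1G09200, at the position of AL1G19510, had 55.4 and 38.0 CPM per kb. In neither family was the gene at the shared position the highest. Of the 4 elongation factor genes, AT5G60390 led with 759 and 586 CPM per kb, and the 3 in a row on chromosome 1 had 252 and 250.5 (AT1G07920), 198 and 199 (AT1G07930) and 188 and 186 (AT1G07940).

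UBQ10 (AT4G05320) had 519.8 and 1087 CPM per kb and UBQ14 (AT4G02890) 109.5 and 207, a 5.08-fold difference. CAB2 and CAB3 were close, at 8944 and 5783 and 7649 and 4000.1 CPM per kb, as were ACT1 (12.6 and 14.6) and ACT3 (13.5 and 15.0), TUA2 (216 and 159.6) and TUA4 (184 and 166), and TUB2 (125 and 93.4) and TUB3 (117 and 86.6). Among the 15 lists of cytosolic ribosomal protein genes, 3 held a difference over 4 times, and the genes of AL1G17910 (1.21-fold) and AL1G46290 (1.36-fold) were close. AT4G33865 had 243 and 149 CPM per kb, AT3G44010 116 and 81.2 and AT3G43980 30.1 and 24.9, all listed by AL5G21390. AT5G18380 had 319 and 217 and AT2G09990 52.8 and 38.0 (AL6G29100), and AT3G04400 had 444 and 329 against 98.6 and 57.2 for AT2G33370 (AL1G14040). Subunits of the vacuolar proton pump listed by AL3G47490 were at 77.8 and 119.6 (AT4G34720), 67.1 and 70.5 (AT4G38920) and 22.7 and 34.4 (AT2G16510).

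The widest differences were found where 1 gene was almost silent in rosettes. PDF1.2c (AT5G44430) had 68 and 147 reads and LCR67 (AT1G75830) none (AL2G34260). WRKY28 had 28 and 65 reads and its neighbour AT4G18180 none. For AL4G11310, SK4 (AT1G20140) had 74 and 61 reads and SK3 (AT2G25700) none. With 3 reads per library set for these silent genes, the means of both libraries differed at least 29.7-fold, 20.0-fold and 11.7-fold. Replicate 1 alone gave bounds of 18.0-fold, 11.5-fold and 13.0-fold, and replicate 2 alone 38.9-fold, 26.8-fold and 10.7-fold. The genes under AL2G34740 had 34 and 232 reads (AT1G76240) and 10 and 6 reads (AT1G76250), a 25.8-fold difference per kb by the means, but 4.72-fold in replicate 1 and 53.7-fold in replicate 2. All 4 models that span neighbouring genes were among the 12 with a difference over 4 times, since AL7G27300 (5.65-fold) and AL2G27270 (4.41-fold) passed as well. In replicate 2 alone the genes of AL2G27270 differed 3.63-fold, below that limit.

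How families of alike genes were divided among models was read for chosen genes of 11 families of *A. thaliana*, which for some families are not all of their members. All 8 genes of histone H4 and all 4 of elongation factor 1-alpha were listed by 1 model each. Of 8 histone H3 genes, 5 fell to AL1G19510, 1 to a model of its own and 2 to none. Of 6 alpha tubulin genes, 4 were divided between AL1G55920 and AL6G30770, and of 9 beta tubulin genes AL5G25080 held 2, with a model for each of the other 7. Of 8 actin genes, 2 fell to AL4G32880, 4 to single-gene models and 2 to none. The 4 histone H2A genes chosen had a model each. Of 6 histone H2B genes, 2 fell to AL5G23900, 3 to single-gene models and 1 to none, and of 7 calmodulin genes 2 fell to AL2G22920, 3 to single-gene models and 2 to none. For the Rubisco small subunit, 1 of 4 genes was listed by a single-gene model and 3 by none, and of 5 LHCB1 genes 2 fell to AL1G42720 and 3 to single-gene models.

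Together the genes chosen from the 11 families had 37 models, all of which were tested. In inflorescences against rosettes 13 were higher and 8 lower, beside 17.6% and 16.7% of all models tested. In the apex against rosettes 4 were higher and 4 lower, beside 2.11% and 6.03%, and in the apex against inflorescences 2 were lower, beside 8.74%. Histones made up 9 of the 13, with 3 of 4 H2A models and 3 of 4 H2B models. All 4 LHCB1 models were lower in inflorescences, and the single Rubisco small subunit model AL7G50630 had 93.7 and 163 CPM in inflorescences, 233 CPM in the shoot apex and 5887 and 6802 CPM in rosettes. These counts include AL1G42720, AL1G17720, AL1G19510 and AL4G32880, given above.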

How the data were processed

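The study aligned single-end reads without strand information to the *A. lyrata* and *A. thaliana* genomes. The submitters' processing notes name FastQC, TopHat and TAIR10, with no version, and the methods speak of uniquely aligned reads. The authors deposited raw read counts for each gene model or gene, and these counts were used here. Deposited columns headed RPKM were not used. The tool and rule of counting are not given in the sources used here. Ortholog lists were read from the deposited annotation. The study describes orthologs as reciprocal best protein matches, and how this field was filled is not given in the sources used here.

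Counts of the 5 *A. lyrata* libraries were tested in 1 fit by edgeR 4.0.16 in R 4.3.3 with filterByExpr, TMM factors, glmQLFit and glmQLFTest, a mean for each tissue and Benjamini-Hochberg adjusted p-values over the 25465 models tested. The fit had 2 residual degrees of freedom and a biological coefficient of variation of 0.303. Standard errors (SE) were taken from the fold change and the F statistic, and the code was tested on simulated data. DESeq2 1.42.0, other scaling factors, no filter, the replicate number as a block, the 2 compared tissues alone and leaving out each replicate were alternatives. Python 3.11.15 with pandas 2.3.3, scipy 1.17.1, Biopython 1.88 and matplotlib 3.10.9 served for the rest. Intervals of shares are exact binomial (Clopper-Pearson) at the 95% level and describe these annotations only.

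Lengths, coding regions and sequences of *A. thaliana* genes came from RefSeq's TAIR10.1 annotation, in which all 197 listed nuclear genes were found. For 31 of them start and end were the same as in the deposited table, and all 197 overlapped. The 8 organelle genes were left out of these comparisons. Identity is that of the most alike pair of isoforms, and the lowest over a list is given. *A. thaliana* genes under 3 reads in a library were set to 3.

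Models are given with values in every library if they list 3 or more genes, are among the 10 with the highest mean level, are among the 6 with the largest change in each direction past the test, belong to a fixed gene family, are among the 5 longest or shortest against their listed gene or among the 5 whose genes differ most in level. The 72 models whose genes are not neighbours are all named, by their range where no other criterion holds. The models and the family lists were chosen with earlier results of these data known.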

Additional observations from a re-analysis of the deposited data

How the results depend on the processing

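Size factors by relative log expression gave the same calls in all 3 comparisons. With library totals in place of TMM factors, 29 models were higher and 3 lower in inflorescences against rosettes, beside 9824 and 2852 of all models. In the apex against rosettes 27 were higher and 1 lower, beside 5473 and 1122 of all models. In the apex against inflorescences 3 were higher and 1 lower, beside 1356 and 1802 of all models. Median log2 fold changes over all models were 0.68, 0.67 and 0.13. DESeq2 called 10 higher and 5 lower in the apex against rosettes, beside 1585 and 3058 of all 25465 models. In the apex against inflorescences DESeq2 called 7 higher and 5 lower, beside 1797 and 3270 of all models. It again made all 24 calls of edgeR. Without the filter on low counts, edgeR called 0 lower in the apex against rosettes (11 at an unadjusted p under 0.05). Of all 29913 models, 1316 were then lower. In the apex against inflorescences edgeR called 1 higher without the filter, beside 860 of all models. With the replicate block, edgeR called 0 higher and 0 lower in the apex against rosettes (11 and 8 at an unadjusted p under 0.05), and 0 higher in the apex against inflorescences (9 unadjusted), and 11 of the 16 calls between inflorescences and rosettes were made again. Replicate numbers are not stated to pair the libraries, and same-numbered libraries deviated with a correlation of 0.068. With the 2 compared tissues alone, edgeR called 0 and 0 in the apex against rosettes (4 and 5 unadjusted). In the apex against inflorescences this fit called 16 higher and 14 lower, beside 5259 and 7130 of all 26057 models. Leaving out 1 replicate gave 0 to 15 higher and 0 to 18 lower in inflorescences against rosettes, 0 to 16 higher and 0 to 17 lower in the apex against rosettes, and 0 to 16 higher and 0 to 14 lower in the apex against inflorescences. The 0 came from leaving out either inflorescence library, and no call changed its direction in any setting. Over all models the calls also rose without a rosette library and fell without an inflorescence library. In the apex against rosettes the replicate block and the fit of 2 tissues called 0 of all models tested. The cause of these differences was not tested. A limit of 50 on locus numbers gave 31 models with neighbouring genes, and a limit of 2 times gave 26 models whose *A. thaliana* genes differ in level, with 11 to 14 at 4 times when 1 library was left out.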
